A study of Mus musculus with 6 samples.

Results

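Annexins are the genes described here, 10 members of one mouse gene family (*Anxa1*, *Anxa2*, *Anxa3*, *Anxa4*, *Anxa5*, *Anxa6*, *Anxa7*, *Anxa8*, *Anxa9* and *Anxa11*) taken by name from the 22911 genes that the probes of the array could be assigned to. The RNA came from OS3 cells, a glial line made from the brain of newborn C3H/HeN mice and immortalized with SV40, and both groups share that background, the line and the culture medium. WT cells (OS3-vector, 3 samples) carried an empty plasmid, and IG27 cells (OS3-H3F3A_K27M, 3 samples) carried a plasmid for the H3.3K27M mutant histone of diffuse midline glioma. All samples were grown for 2 days before RNA extraction and were hybridized to 1 single-color Agilent array each. The transfected cells were selected with a drug, and the sources used here do not say how many clones IG27 represents. The replicates are samples of 1 line per group, so the p-values measure only the spread between such samples, which may be technical, and a difference between the lines cannot be told apart from a difference between clones.

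Annexins are proteins that attach to negatively charged phospholipids of membranes when calcium rises. Their conserved core of annexin repeats holds the calcium and lipid binding sites, and the variable N-terminal tail is where partners such as S100 proteins dock. In cells they take part in membrane repair, in vesicle traffic and exocytosis, in linking membranes to actin and, outside the cell, in control of inflammation, clotting and plasminogen activation. In the brain, *Anxa1*, *Anxa2* and *Anxa5* are known from glia, vessels and gliomas.

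A level below is the log2 intensity of a probe minus the 75th percentile of its array, so that 0 is that percentile, and a difference is the level in IG27 minus that in WT. Levels of different probes are not on 1 scale and are not compared. The groups stood apart across the genes that passed the background filter, each read by 1 probe. There the Pearson r was 0.994 to 0.997 within groups and 0.902 to 0.905 between them. Of all 56605 probes, 58.8% to 61.2% were well above background, by the flag of the scanner software, on the 5 arrays that have that flag. IG27 replicate 2 has no flags, because its deposited scanner output is incomplete and its values came from the deposited value table. Of the glial markers, *Gfap*, the astrocyte filament protein, had a mean level of 6.64 in WT and 5.57 in IG27, and *Sox10*, a transcription factor of the oligodendrocyte lineage, had 5.77 and 5.40. *Slc1a3*, the astrocyte glutamate transporter, was not well above background in WT and was at least 20.6-fold higher in IG27, and *Gja1* did not pass the filter in either group, so the labeled glial identity is borne out by some of its markers and not by others. *H3f3a*, the gene of the transfected histone, had a mean level of 6.84 in WT and 6.58 in IG27. Its log2 fold change of -0.26 was called lower (adjusted p = 0.0237, limma), and it is not stated whether its probes read the plasmid's RNA.

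Across the family, *Anxa1*, *Anxa2* and *Anxa9* fell in IG27 cells among the 5 members whose probe was well above background on every flagged array, and *Anxa5* and *Anxa6* were not called. *Anxa7* and *Anxa8* were also called lower, but they passed the filter only through WT, where they were the brighter, so their calls add no support to a direction of the family. None was called higher, and *Anxa3*, *Anxa4* and *Anxa11* had no probe well above background on every flagged array of a group. The test was that of limma, two-sided, and a call is an adjusted p below 0.05 after Benjamini-Hochberg correction over the 14897 genes tested. Of all genes tested, 70.5% were called, 40.0% lower and 30.5% higher in IG27, so that a lower call was the more frequent kind over the whole array as well. The median log2 fold change of the 5 members well above background throughout was -0.21, beside -0.08 over the 13544 genes of that kind. With *Anxa7* and *Anxa8* it was -0.58, beside -0.07 over all genes tested. The values of the groups did not overlap in 6 of these 7, beside 75.7% of all genes tested. Of the 5 members well above background throughout, *Anxa6* overlapped and *Anxa1*, *Anxa2*, *Anxa5* and *Anxa9* did not. The other 2 of the 6 are *Anxa7* and *Anxa8*, for which the filter itself favored a gap. In these bulk samples, fewer cells that carry a transcript and less of it per cell cannot be told apart.

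**Figure D1:**
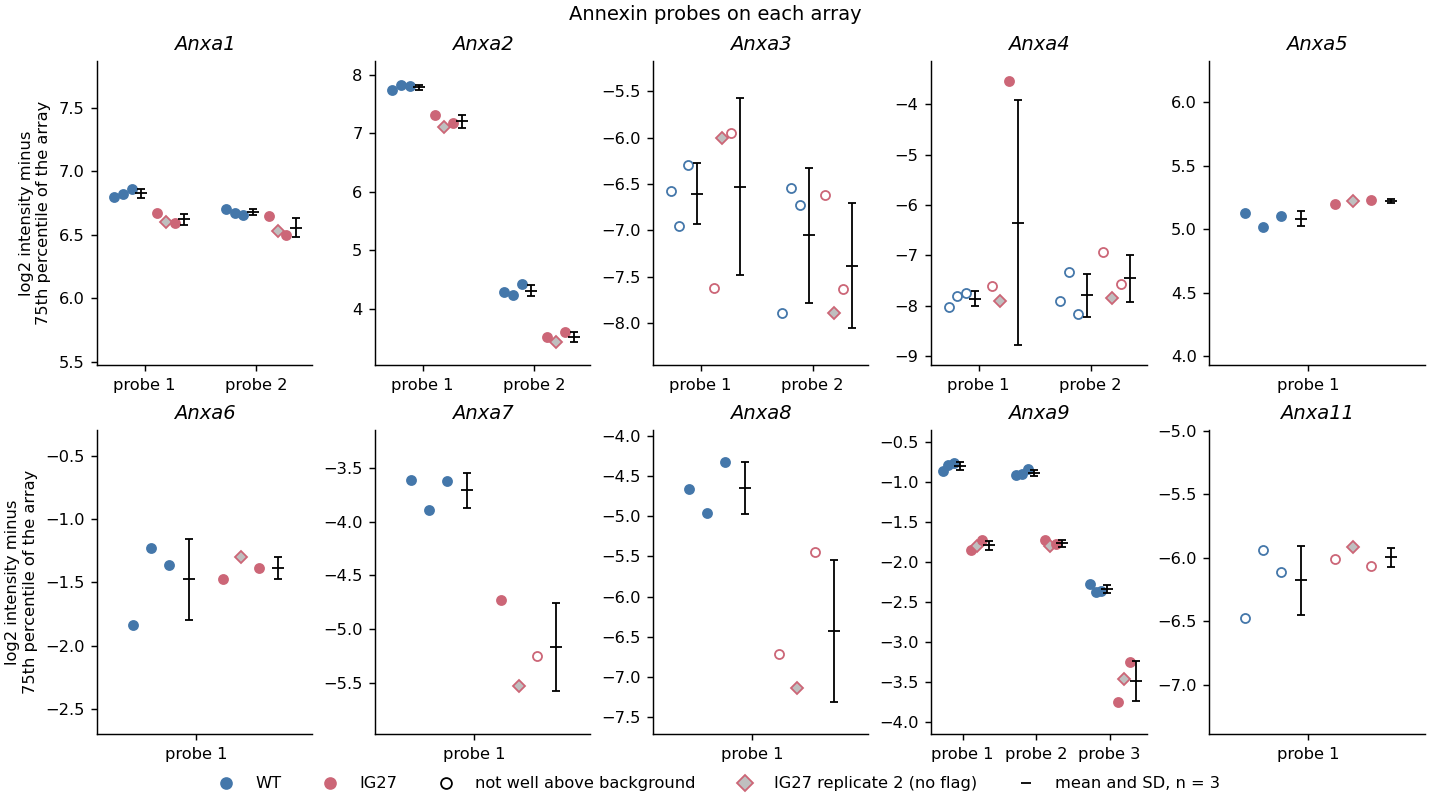
Normalized log2 intensity (y axis, a scale of its own in each panel) of each of the 16 annexin probes on the 6 arrays, in WT (blue) and IG27 (red), with the mean and SD of each group beside the points. Open circles were not well above background, and gray diamonds are IG27 replicate 2, which has no flag. IG27 values lie below all WT values of the same probe in *Anxa2*, *Anxa7*, *Anxa8* and *Anxa9* and, by a small gap, in *Anxa1*. The *Anxa3* and *Anxa11* probes have only open circles and diamonds.

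The upstream sequences of 4 members are shown because these genes fell with different sizes (*Anxa1*, *Anxa2* and *Anxa9*) or were not called (*Anxa5*), and they differ in base composition and in core promoter motifs. They are the 250 bases before the annotated start in RefSeq, build GRCm38.p6, written 5′ to 3′ on the gene's strand, with matches to the motifs named below in capitals. *Anxa1* lies on the minus strand (chr19:20390672-20390921), *Anxa2* on the plus strand (chr9:69453433-69453682), and *Anxa5* (chr3:36475888-36476137) and *Anxa9* (chr3:95315181-95315430, the more distant of its 2 listed starts) on the minus strand.
Anxa1: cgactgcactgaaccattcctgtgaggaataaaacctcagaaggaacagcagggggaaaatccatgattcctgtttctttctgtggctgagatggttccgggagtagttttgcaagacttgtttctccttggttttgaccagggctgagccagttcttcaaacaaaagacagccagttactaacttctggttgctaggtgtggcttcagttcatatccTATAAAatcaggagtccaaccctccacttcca
Anxa2: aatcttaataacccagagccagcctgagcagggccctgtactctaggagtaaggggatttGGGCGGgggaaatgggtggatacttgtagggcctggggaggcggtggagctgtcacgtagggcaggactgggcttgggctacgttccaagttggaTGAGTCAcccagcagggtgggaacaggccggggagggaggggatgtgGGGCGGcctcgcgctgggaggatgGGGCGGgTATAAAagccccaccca
Anxa5: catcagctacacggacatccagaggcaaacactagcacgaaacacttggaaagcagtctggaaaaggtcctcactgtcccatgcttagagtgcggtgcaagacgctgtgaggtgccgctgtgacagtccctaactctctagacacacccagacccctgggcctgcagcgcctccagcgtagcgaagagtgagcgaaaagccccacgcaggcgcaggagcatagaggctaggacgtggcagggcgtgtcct
Anxa9: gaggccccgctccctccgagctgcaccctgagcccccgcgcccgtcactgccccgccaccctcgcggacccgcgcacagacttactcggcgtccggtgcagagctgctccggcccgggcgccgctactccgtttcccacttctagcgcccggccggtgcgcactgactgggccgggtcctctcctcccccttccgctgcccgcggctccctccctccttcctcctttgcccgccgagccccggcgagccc

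Windows of 300 bases, which add the first bases of the transcript to those printed, were searched on both strands for the core promoter motif TATAAA, the GC box core GGGCGG, the AP-1 site TGANTCA, the motif CCAAT that binds the factor NF-Y, and the E-box CACGTG. RefSeq promoters were found for 8 of the 10 members (*Anxa3* and *Anxa6* were not matched). The *Anxa1* window holds TATAAA with its first base at position -32, and has 47.3% G and C. The *Anxa2* window holds TATAAA at position -17, the GC box core at -190, -48 and -24 and the AP-1 site at -95, counted from the start to the first base of each match, none of them overlapping, with 63.7% G and C. The windows of *Anxa5* (60.3% G and C) and *Anxa9* (75.7%) hold none of these motifs, and neither does that of *Anxa8* (57.3%). Those of *Anxa4* (at position 7, within the transcript), *Anxa7* and *Anxa11* hold the GC box core. For *Anxa4*, *Anxa7* and *Anxa9*, which have 2 listed starts each, these are the windows of the more upstream start. The second *Anxa7* window holds 4 GC box cores and the E-box at -113. The second windows of *Anxa4* and *Anxa9* hold none of the motifs. Of all 32851 promoter windows of this length, 13.6% hold TATAAA, 35.7% the GC box core, 7.8% the AP-1 site, 37.4% the NF-Y motif and 7.2% the E-box, and the median G and C content is 52.7%. A match is a description of letters, and the arrays do not show which start was used.

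*Anxa2* encodes annexin A2, which forms a complex with S100a10 at the cell surface and there binds plasminogen and tissue plasminogen activator. For replicates 1 to 3 in order, its brightest probe read 7.73, 7.82 and 7.81 in WT but 7.32, 7.11 and 7.18 in IG27. Every IG27 array was below every WT array. The mean fell from 7.78 ± 0.05 to 7.20 ± 0.11 (SD, n = 3 each), a log2 fold change of -0.58 (standard error 0.07, 95% interval -0.75 to -0.41), and the intensity in IG27 was 66.9% of that in WT (adjusted p = 3.91e-04, limma). The other probe gave levels of 4.29, 4.23 and 4.42 in WT and of 3.52, 3.44 and 3.61 in IG27, a 1.73-fold decrease. Both probes fell and neither overlapped. RefSeq lists a related sequence of *Anxa2* (*Gm41080*), and the files hold no probe sequences, so reads of such copies by these probes could not be assessed.

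*Anxa1* encodes annexin A1, a protein induced by glucocorticoids that dampens inflammation through formyl peptide receptors. Its levels were 6.79, 6.82 and 6.86 in WT and 6.67, 6.60 and 6.60 in IG27 replicates 1 to 3, so the groups did not overlap, but the gap was small. The log2 fold change was -0.21 (standard error 0.05, 95% interval -0.32 to -0.09, adjusted p = 0.00881, limma), which leaves 86.7% of the WT intensity. Among all genes tested, 25.9% had a smaller absolute change. The second probe gave levels of 6.70, 6.67 and 6.66 in WT against 6.64, 6.53 and 6.50 in IG27, a log2 difference of -0.12 that did not pass the test (adjusted p = 0.107, limma over all probes). The call on *Anxa1* thus rests on 1 of its 2 probes. A block for the slide row compares IG27 with WT replicate 2 only. With it the call was lost, though the log2 fold change was -0.20.

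*Anxa9* encodes annexin A9, an atypical member whose core has lost calcium-binding residues that other annexins keep. Its brightest probe had levels of -0.86, -0.79 and -0.76 in WT and of -1.85, -1.80 and -1.73 in IG27 replicates 1 to 3. The groups were far apart for their spread (-0.80 ± 0.05 against -1.79 ± 0.06, SD, n = 3 each). The log2 fold change of -0.99 (standard error 0.06, 95% interval -1.13 to -0.85, adjusted p = 1.38e-05, limma) left 50.3% of the WT intensity. A second probe fell 1.84-fold and the third, read from the same transcript accession, 2.22-fold, and none of the 3 overlapped between groups. The genes nearest in pattern to *Anxa9* were *Palm* (0.0206, log2 fold change -0.96), *Zeb2os* (0.0270, -0.96) and *Psme1* (0.0287, -0.99). These had the smallest root mean square difference (first value) between mean-centered levels over the 6 arrays. Such a rule selects genes of nearly the same fold change, so that match is not a result.

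*Anxa7* and *Anxa8* were read by dim probes. *Anxa7*, or synexin, promotes membrane fusion during exocytosis and binds the penta-EF-hand protein sorcin. Its only probe had levels of -3.61, -3.89 and -3.62 in WT and of -4.73, -5.53 and -5.25 in IG27 replicates 1 to 3. Every IG27 array lay below WT, and of the 2 IG27 arrays with flags 1 was well above background. The log2 fold change was -1.46 (standard error 0.21, 95% interval -1.98 to -0.95, adjusted p = 0.00101, limma), or 36.3% of the WT intensity. A normexp background correction with an offset of 50, followed by quantile normalization and run on the 5 arrays with complete scanner output, gave -0.65, still called, while those 5 arrays in the main processing gave -1.28.

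*Anxa8*, a member first described as a vascular anticoagulant, had levels of -4.65, -4.96 and -4.32 in WT, all well above background. In IG27 replicates 1 to 3 its probe read -6.72, -7.14 and -5.44 and was not well above background on either array with flags, which gives IG27 only an upper bound. Set against the lowest level well above background on each array, *Anxa8* was at least 1.62-fold lower in IG27, a bound that was not itself tested. Its measured means were -4.64 and -6.43, and the call (adjusted p = 0.0113, limma) is that of these measured values. The call was lost with the slide row as a block (log2 fold change -1.47, adjusted p = 0.110), and normexp on 5 arrays gave a log2 fold change of -0.54, still called, beside -1.44 on the same arrays in the main processing.

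*Anxa5*, the anticoagulant annexin whose binding to exposed phosphatidylserine is used to stain dying cells, was the member nearest to a rise. Its levels were 5.13, 5.02 and 5.11 in WT and 5.20, 5.22 and 5.23 in IG27 replicates 1 to 3, with no overlap. The log2 difference of 0.13 (standard error 0.05, 95% interval 0.01 to 0.26, 110% of WT) had an adjusted p of 0.0516 (limma) and was not called. Its call changed between settings, and scaling by the array median, which moves the median of all genes from -0.07 to -0.31, turned its sign to -0.11 without a call.

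*Anxa6*, an annexin with a duplicated core that regulates cholesterol and endocytic traffic, overlapped between groups. Its levels were -1.84, -1.23 and -1.36 in WT and -1.47, -1.30 and -1.39 in IG27 replicates 1 to 3. WT replicate 1 was the lowest of the 6 arrays, and without it the log2 difference changed from 0.09 to -0.09. The adjusted p was 0.637 (limma), and the 95% interval of -0.30 to 0.48 does not exclude a change of the size seen for *Anxa1*.

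The untested members were at the floor of the array. The 2 probes of *Anxa3*, an annexin of myeloid cells and microglia, gave processed intensities of 4.5 to 17.6, and the probe of *Anxa11*, which binds S100a6 and couples RNA granules to lysosomes, gave 12.04 to 18.8. None was well above background on any array with flags. *Anxa4*, a membrane-binding annexin of epithelia, was the exception on 1 array. Its first probe had an intensity of 85.8 and a level of -3.54 on IG27 replicate 3, well above background, and levels of -8.03, -7.81 and -7.75 in WT and of -7.60 and -7.90 in IG27 replicates 1 and 2. The second *Anxa4* probe read -7.58 on the same array and was not above background there. Without the filter on dim probes none of the 3 genes was called (adjusted p = 0.911 for *Anxa3*, 0.342 for *Anxa4* and 0.353 for *Anxa11*, limma). *Anxa10* and *Anxa13*, the annexins outside the list, were on the array and did not pass the same filter.

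**Figure D2:**
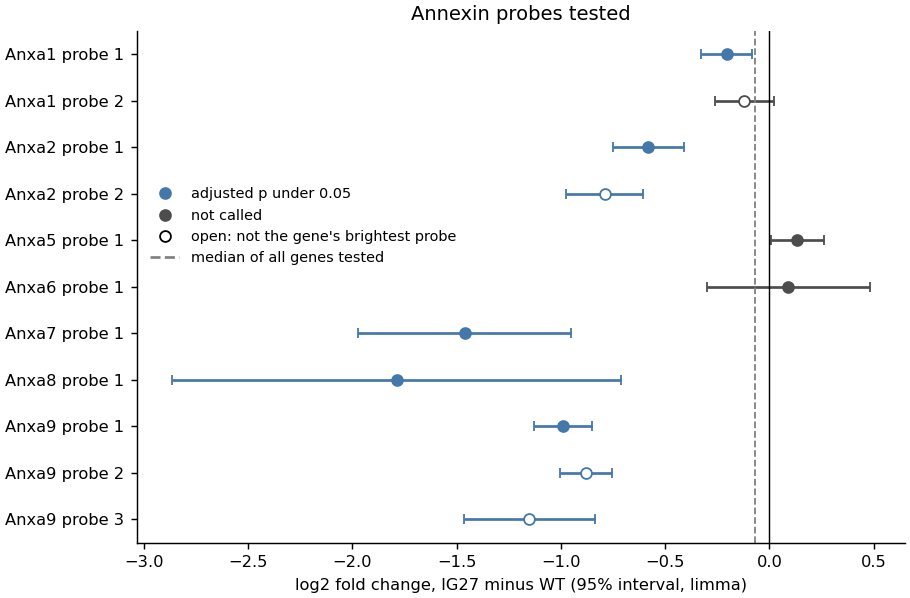
Log2 fold change of IG27 over WT (x axis) of each of the 11 annexin probes tested, with the 95% interval of limma. Blue points were called, gray points were not, open points are probes other than the one that stands for the gene, and the *Anxa8* point is a measured value of a probe not well above background on the 2 flagged IG27 arrays. The called probes lie left of the dashed median of all genes tested, -0.07, and the *Anxa5* and *Anxa6* probes lie right of it.

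Partners of the annexins were taken as lists of genes, and their counts are read beside the 70.5% of all genes that were called. The S100 proteins that bind annexins moved in both directions. All 6 were called, 4 higher and 2 lower, with a median log2 fold change of 3.94. *S100a1* passed the filter only through IG27, where it was the brighter, so its higher call adds no support to a direction. The median depends on its measured value, since its probe was not well above background in WT. *S100a10*, the partner of annexin A2, had levels of 5.58, 5.57 and 5.64 in WT and of 5.05, 5.04 and 4.99 in IG27. Its change of -0.57 on the log2 scale (standard error 0.05; adjusted p = 7.53e-05, limma) stood beside the -0.58 of *Anxa2*. *S100a4* fell by 0.27 on the log2 scale (adjusted p = 0.00547, limma). *S100a11*, the partner of annexin A1, rose by 7.96 (standard error 0.13) from levels of -4.39, -4.07 and -4.59, and *S100a6*, a partner of annexin A11, rose by 7.96 (standard error 0.05) from -0.68, -0.57 and -0.64. *S100b* rose by 4.93, and *S100a1* was not well above background in WT and was at least 2.49-fold higher in IG27. These directions held with quantile and with median scaling. The *S100a11* probe was dim in WT, though well above background there, and the partner lists were not compared under another background correction.

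The receptors and the plasminogen system showed no common direction. Of the formyl peptide receptors only *Fpr2* could be tested, with a log2 difference of 0.22 that was not called (adjusted p = 0.184, limma) and was -0.02 with median scaling. Of 9 genes of plasminogen activation at the cell surface, 6 were tested, 3 rose and 3 fell. With quantile normalization 3 were called higher and 2 lower. *Serpine2*, an inhibitor of plasminogen activators read by a probe dim in WT, had a log2 fold change of 3.27. *Plaur*, the urokinase receptor, had 1.96 and *Plat*, tissue plasminogen activator, had -1.49. *Plg*, *Plau* and *Serpinb2* were not tested.

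Genes of membrane repair, calcium-binding partners and lipid exposure also split. Of 11 membrane repair genes 9 were tested, 3 were higher and 6 lower, with a median log2 fold change of -0.33. The largest falls were *Capn1*, a calpain protease, at -1.25 and *Ahnak*, a scaffold that binds annexin A2 with S100a10, at -1.03, and the largest rises were *Capns1*, the small calpain subunit, at 0.85 and *Myof*, a membrane fusion protein, at 0.31, whose call was lost with median scaling, which left 1 gene of this list higher. All 4 penta-EF-hand genes were called. *Gca* (grancalcin, 3.06, read by a probe dim in WT) and *Pef1* (0.52) were higher. *Pdcd6* (ALG-2, a partner of annexins A7 and A11, -0.88) and *Sri* (sorcin, -0.15, not called with quantile normalization) were lower. Of 12 genes that make phosphatidylserine or move it between membrane leaflets, the lipid that annexin A5 binds, 4 were higher, 6 lower and 2 not called. With quantile normalization 4 were higher and 5 lower, and with median scaling 3 were higher and 7 lower. *Plscr4*, of the phospholipid scramblase family, had a log2 fold change of 1.70, while *Atp11a*, a flippase, had -1.47 and *Ptdss1*, a phosphatidylserine synthase, -1.05. *Xkr4* was at least 4.82-fold higher, being not well above background in WT. It passed the filter only through IG27, so its higher call adds no support to a direction of the list.

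**Figure D3:**
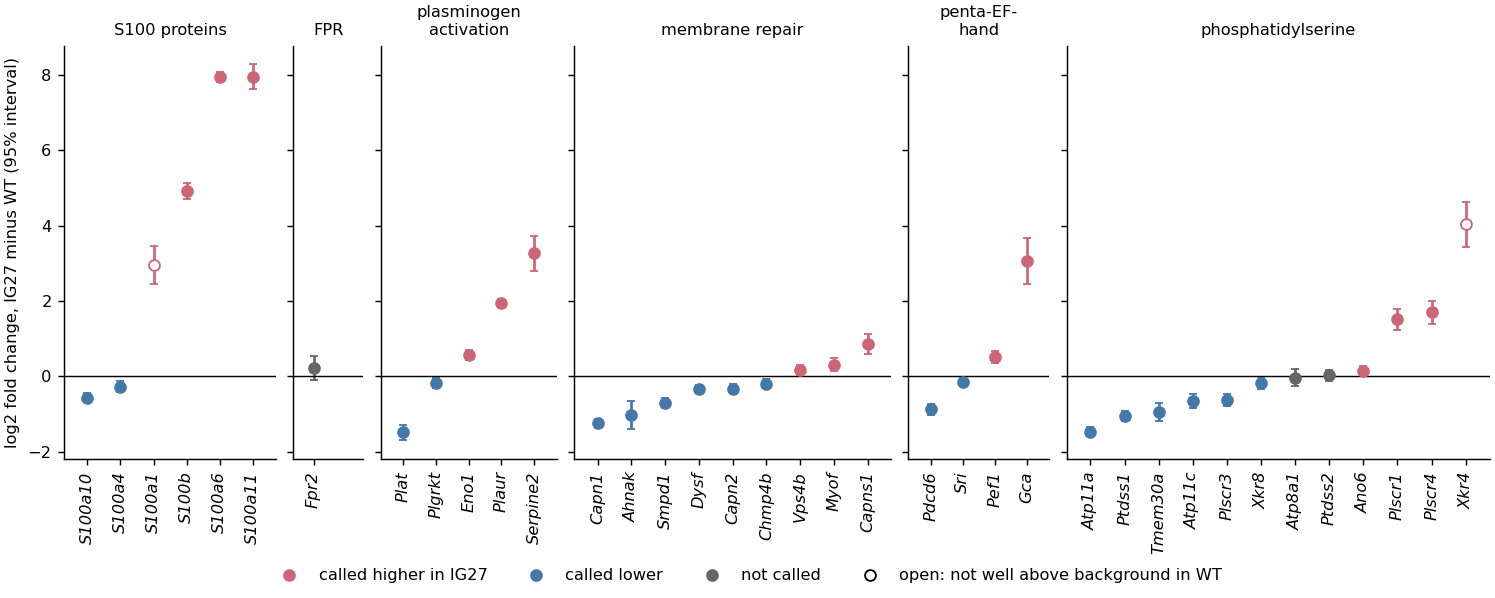
Log2 fold change of IG27 over WT (y axis) with the 95% interval of limma for tested genes of 6 partner lists (1 plasminogen activation gene is not plotted), ordered by size within each list. *S100a6* and *S100a11* stand at 7.96 and *S100a10* at -0.57, and the open points, *S100a1* and *Xkr4*, are measured values of genes not well above background in WT.

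The annexin genes are spread over the genome, and the tested genes beside each one were compared with it. On chromosome 19, 22.7% of tested genes were called lower. Of the 5 tested genes on each side of *Anxa1* there, 7 were called higher and none lower, with a median of 0.94. Over all genes tested, 30.5% were called higher. *Aldh1a1* (4.99), a retinal dehydrogenase gene, and its relative *Aldh1a7* (4.61) lay within 4 tested genes of *Anxa1*, which was opposite in sign to most of its neighbors. On chromosome 14, 49.9% of tested genes were called lower, and so were 9 of the 10 neighbors of *Anxa7* and 7 of those of *Anxa8*, with 2 of the latter higher. The neighbors of *Anxa7* had a median of -1.27 beside its own -1.46, and the adjacent tested genes were *Cfap70* (-4.37) and *Mss51* (-1.31). Around *Anxa2* on chromosome 9, 6 were lower and 3 higher, with a median of -0.61 beside -0.58, and over the whole of that chromosome 71.1% of tested genes were called lower, with a median of -0.64. On chromosome 3, 56.2% of tested genes were called lower. Of the neighbors of *Anxa5* there, 8 were lower and none higher (median -1.20), and *Anxa5* at 0.13 stood above them. *Anxa9* on the same chromosome lay between *Mindy1* (-0.86) and *Cers2* (-0.91), and of its 10 neighbors 5 were lower and 1 higher (median -0.24). Around *Anxa6* on chromosome 11, 6 were lower and 1 higher, beside 41.5% lower on that chromosome. The part that chromosome or position plays in these values was not tested.

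**Figure D4:**
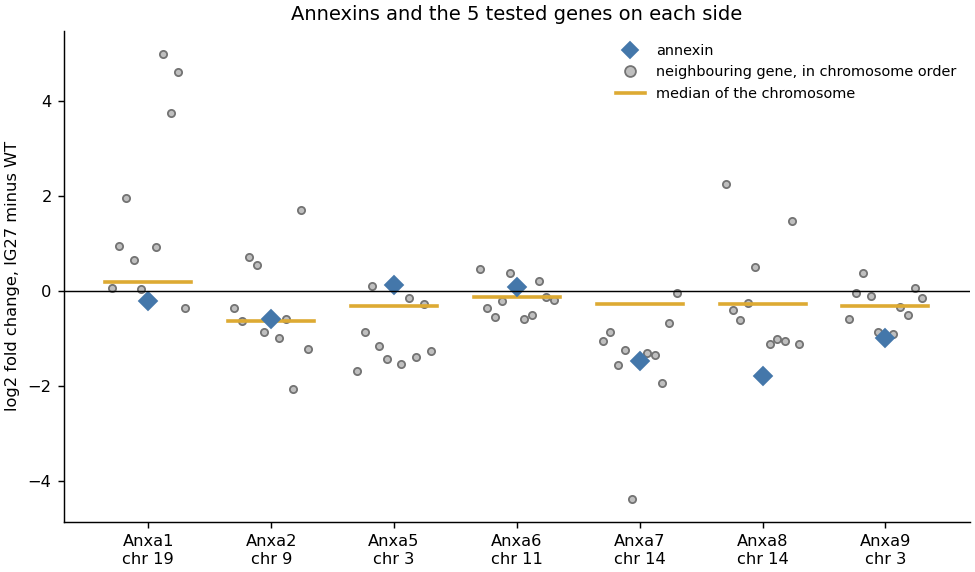
Log2 fold change of IG27 over WT (y axis) of the 7 tested annexins (diamonds) and of the 5 tested genes on each side in chromosome order (gray points), with the median of the chromosome (line). *Anxa7* lies among lower neighbors with a median of -1.27, and *Anxa1* lies under neighbors with a median of 0.94. The *Anxa8* diamond is a measured value of a probe not well above background on the 2 flagged IG27 arrays.

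Markers of cell types moved in both directions within their lists. Their linear levels were also summed for each array, and a sum is carried mostly by its brightest probes and does not show how the list as a whole moved. Fibroblast and mural cell markers, of which 4 of 7 were tested (1 higher, 3 lower), summed to 149 to 152 in WT and 80.0 to 85.2 in IG27. *Col1a1* fell by 0.92 on the log2 scale, *Dcn* was at least 3.32-fold higher, and *Col1a2*, *Lum* and *Rgs5* were not tested. Astrocyte markers (7 of 8 tested, 2 higher, 3 lower) summed to 98.3 to 108 and to 57.6 to 66.0, with *Gfap* lower but *S100b* and *Slc1a3* higher. Neuron markers (4 of 7, 1 higher, 1 lower) summed to 18.4 to 20.7 and to 10.9 to 11.95, with *Tubb3* at -2.63 and *Map2* at 8.03 on the log2 scale and *Rbfox3*, *Syt1* and *Nefl* not tested. The *Map2* value is a measured one, and its probe was well above background on only 1 of the 3 WT arrays. Endothelial markers (3 of 6, 2 higher, 1 lower) summed to 0.247 to 0.263 and to 2.80 to 2.89, with *Kdr* at least 135-fold higher, *Pecam1* lower by a log2 fold change of -0.27, and *Cdh5*, *Cldn5* and *Tek* not tested. Oligodendrocyte lineage markers (8 of 8, 4 higher, 2 lower) summed to 73.8 to 75.9 and 74.8 to 77.4, and microglia markers (5 of 7, 3 higher, 2 lower) to 14.6 to 15.6 and 13.9 to 14.4, with *Cx3cr1* and *Ptprc* not tested. *Dcn*, *Slc1a3*, *Map2*, *Kdr* and the microglia marker *Aif1* passed the filter only through IG27, where they were the brighter. The filter favored their higher calls, which add no support to a direction of a list. The part of the cell type markers in the annexin differences was not tested.

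**Figure D5:**
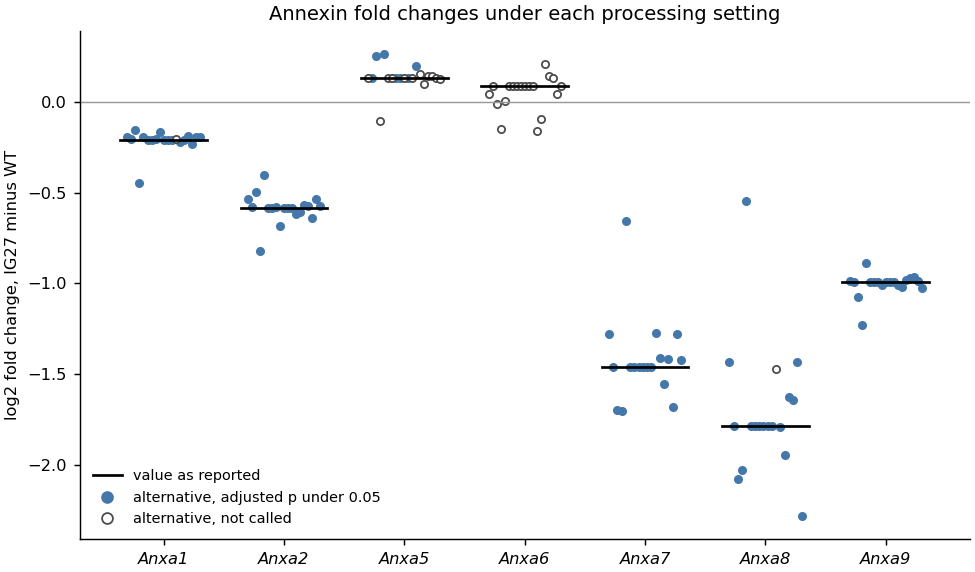
Log2 fold change of IG27 over WT (y axis) of the 7 tested annexins under each alternative setting, filled where the adjusted p was under 0.05, with the reported value as a line. *Anxa2*, *Anxa7* and *Anxa9* were called in every setting that tested them, *Anxa1* and *Anxa8* have 1 open point each, and *Anxa5* ranges from -0.11 to 0.27.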

How the data were processed

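RNA expression of 3 WT and 3 IG27 samples was measured on 6 single-color arrays of 1 slide. All IG27 arrays and WT replicate 2 lay in slide row 2, and WT replicates 1 and 3 lay in row 1. Row and group can thus be told apart only through WT replicate 2. The authors scanned the arrays and deposited the intensity of each spot as read by Agilent Feature Extraction (version 9.1 in the submitters' notes), on a linear scale after that software's own processing, whose steps the sources used here do not give, together with a value table of the same intensity per probe. The scanner output of IG27 replicate 2 holds 285 of 62976 spots. For all 255 of its probes with a single spot the table gave the same value (relative tolerance 1e-04), so the table was used for this array. WT replicates 2 and 3 are exchanged between the table and the scanner output, whose labels were followed.

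From the log2 intensity, each array's 75th percentile over non-control probes was subtracted. Outlier-flagged spots (107 to 210 on each complete array) were dropped, and no spot was saturated. The median intensity ran from 70.0 to 96.1 per array beside a local background of 29 to 34, and the number of arrays limits the precision. Probes were named through their RefSeq accessions with a table of GRCm38.p6 (32994 of 56605 named). A gene was its brightest probe among those well above background on every flagged array of at least 1 group. Differences were tested two-sided by lmFit and eBayes of limma 3.58.1 (R 4.3.3) without a block, and p was adjusted over 14897 genes (Benjamini-Hochberg). For the fold bounds alone, the level of a group not well above background was set per array to the higher of the probe's own and a floor. That floor was the lowest level well above background (for IG27 replicate 2, the highest such value of the IG27 arrays). Tests, means and figures used the measured values.

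All 10 members were named, every tested gene of the partner lists could be named, and in lists of more than 4 tested genes the 2 largest rises and falls were, except that 1 gene of the plasminogen list is counted but not reported here. The neighboring genes and the cell type markers printed were singled out after their values were seen. The members and lists were chosen with earlier results of these data known. The alternatives were 5 arrays, the value table, quantile or median scaling, normexp with an offset of 50 (on the 5 arrays), 2 other filters, outlier spots kept, other uses of probes, a variance trend, replicate and slide row blocks, each array left out and unadjusted p, and the scalings of the partner lists were added after the data were examined. The steps were tested on simulated data.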

Additional observations from a re-analysis of the deposited data

How the results depend on the processing

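Of the 5 lower calls, *Anxa2*, *Anxa7* and *Anxa9* stayed lower in every alternative that tested them, with log2 fold changes of -0.82 to -0.40, -1.70 to -0.65 and -1.23 to -0.88. The number of annexins called lower was 3 when probes had to be well above background on every flagged array, since *Anxa7* and *Anxa8* were then not tested. It was also 3 with the slide row as a block, where *Anxa1* (adjusted p = 0.0627) and *Anxa8* (adjusted p = 0.110, limma) lost their calls; that fit compares IG27 with WT replicate 2 only. The number called higher was 1 in place of 0, in each case *Anxa5*, with the value table, quantile normalization, normexp, the mean over each gene's probes, flagged spots kept, a variance trend, the slide row as a block, and an unadjusted p of at most 0.05. Its adjusted p over these settings and the others ran from 0.00503 to 0.254. Why these calls moved was not tested. Leaving out each array in turn changed no annexin's call. With the replicate block, 5 annexins were lower and none higher, and 10308 genes were called in all beside 10500; deviations of samples with the same number correlated at 0.01, 0.04 and 0.08, so the numbers were not taken to pair the samples. The number of genes called in all ran from 8945 to 10981 over the alternatives. Dim probes limit *Anxa7*, *Anxa8* and the 3 untested members most, and the precision of every value rests on 3 arrays a group.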
